A study of Caenorhabditis elegans with 18 samples.

Results

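The C-type lectin genes of Caenorhabditis elegans were followed in whole worms exposed to 5 small molecules. The members are the probe sets of the array whose annotated gene symbols all begin with clec-, a rule that uses no measured value. It took 251 of 22548 probe sets, which stand for 230 distinct genes. Of these probe sets, 236 match 1 lectin gene and 15 match several, while 7 others that pair a lectin with another kind of gene were left out. In the RefSeq annotation 209 of the 230 genes are protein coding and 21 are pseudogenes, and 30 further protein-coding lectin genes have no such probe set.

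C-type lectins are proteins built around a fold that in many animals binds sugars in a calcium-dependent way. Worms have no antibodies and no circulating immune cells, and their many lectin genes, a large share of which encode proteins with a secretion signal, are among those switched on in the intestine when they feed on harmful bacteria. Different pathogens are known to raise different lectin genes, so the family is widely read as a marker of the defense response.

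RNA was taken from wild-type N2 young adults grown for 56 h at 22 °C on Escherichia coli OP50 and then held for 8 h, at about 6000 worms per well, in buffer with OP50 and no pathogen. The vehicle DMSO alone was compared with LK32, LK34, LK35, LK38 and LK56, each at 100 µM. There were 6 groups of 3 biological replicates, named by the array letters A, B and C, and 1 Affymetrix array per replicate. The same 3 DMSO arrays served as the control of every compound, so the 5 comparisons with DMSO share their control values. Values are deposited GCRMA intensities, a background-corrected and normalized brightness on a linear scale whose lowest value is 4.605, called the floor here. Fold changes are ratios of geometric means, given on the log2 scale with limma's standard error (SE). Because RNA came from whole worms, fewer cells of a type and less RNA per cell cannot be told apart.

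Most lectin probe sets gave no signal in these worms. At the floor (within 0.1%) on all 18 arrays lay 138 of the 251 probe sets, or 55%, against 36.2% of all probe sets. The others lay above it on at least 1 array, and 59 to 76 lectin probe sets did so on any single array. Counted by gene, 124 of 220 genes with a probe set of their own were at the floor on every array. Among the silent ones were clec-39, clec-42 and clec-70, all linked to bacterial infection in earlier worm work. Across arrays, 46.3% to 49.4% of all values were at the floor, and the 15 intestine marker probe sets were above it on some array in every case. Arrays of a group correlated with each other at a mean of 0.9863 (LK35 A) to 0.9968, and the next lowest were LK32 C (0.989), LK35 B (0.9894) and LK38 C (0.99).

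Against DMSO, lectin probe sets were called higher more often than lower with every compound but LK35, and most often with LK38 and LK32. A probe set was called at an adjusted p under 0.05, corrected over all 22548 probe sets by the method of Benjamini and Hochberg, together with a fold of at least 2. LK32 raised 7 lectin probe sets (2.79%, against 0.696% of all probe sets) and lowered 0 (against 0%). LK34 raised 6 (2.39%, against 1.49%) and lowered 3 (1.2%, against 0.812%). With LK35, 2 were higher (0.797%, against 0.993%) and 4 lower (1.59%, against 1.15%). LK38 raised 9 (3.59%, against 1.57%) and lowered 3 (1.2%, against 0.75%). LK56 raised 1 (0.398%, against 0.514%) and lowered 0 (against 0.0133%). The lectin shares lay near the background for LK35 and LK56 and furthest above it for genes raised by LK32 and LK38. No test was made of whether any share differs from its background.

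**Figure D1:**
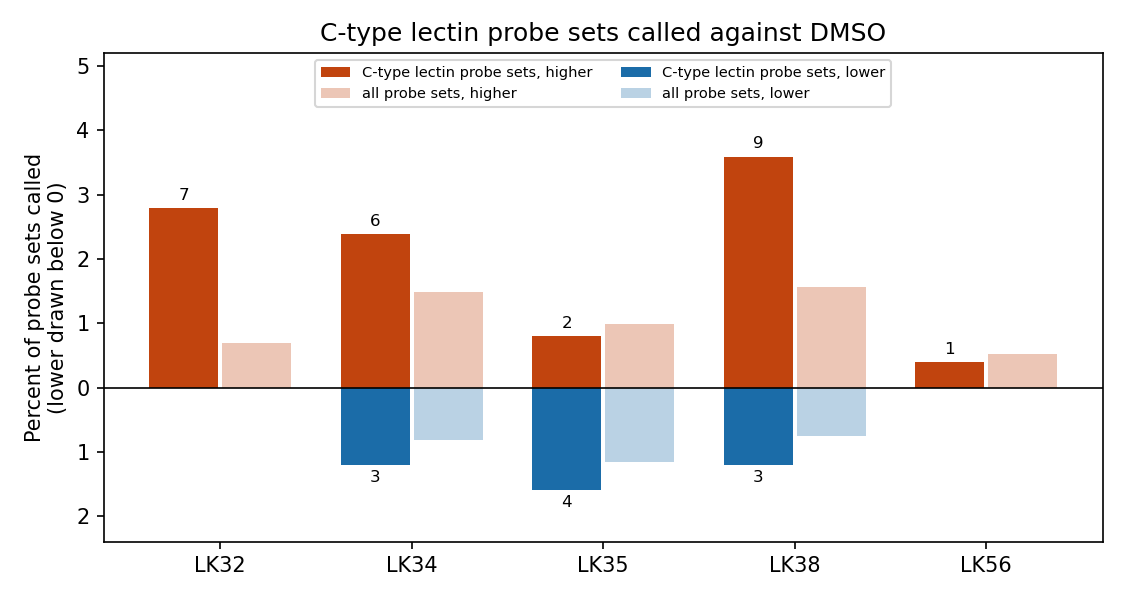
Percent of the 251 C-type lectin probe sets (full colour) and of all 22548 probe sets (pale) called higher (above 0) or lower (below 0) than DMSO with each compound, with the number of lectin probe sets on each bar. LK38 and LK32 have the tallest lectin bars, 9 and 7 probe sets, and the LK35 and LK56 bars lie close to the pale ones.

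The counts of higher lectins leaned on single arrays. Leaving out DMSO B brought them to 3 for LK32, 1 for LK34, 1 for LK35, 3 for LK38 and 0 for LK56. Of the 19 called lectin probe sets, 14 had their lowest DMSO value on that array. The 14 include clec-47, clec-54 and clec-61, which were called lower only. DMSO B was also the dimmest control over all probe sets well above the floor (median 374.9, against 412.8 and 437.5). The counts were also cut to 3 or 4 for LK32 (without LK32 C or LK32 A), to 1 for LK34 (without LK34 A or LK34 B) and to 3 (without LK34 C or DMSO C). For LK35 the count was 1 without LK35 C or DMSO C and 5 without LK35 A. For LK38 it was 2 without LK38 A and 3 without LK38 B. LK56 had 0 without LK56 A, LK56 B or DMSO A, 2 without LK32 C and 5 without LK56 C. Counts of lower lectins moved less, between 3 and 5 for LK34 (5 without DMSO B), 3 and 6 for LK35 and 2 and 4 for LK38. The share of all probe sets called under each omission is not given, so these moves are not particular to lectins as far as known.

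Without regard to a test, 16 lectin probe sets stood at least 2-fold above DMSO with LK32 and 16 with LK38, or 6.37% in each case, where all probe sets gave 3.09% and 3.6%. The corresponding numbers were 12 for LK34 (4.78%, against 3.27%), 9 for LK35 (3.59%, against 2.35%) and 10 for LK56 (3.98%, against 2.36%). At least 2-fold below DMSO were 8 with each of LK34, LK35 and LK38 (3.19%, against 1.49%, 2.36% and 1.43%). With LK32 there were 2 (0.797%, against 0.346%) and with LK56 1 (0.398%, against 0.239%). The median change over the 251 was 0 for every compound, as it was over all probe sets, since most values lay at the floor. At an unadjusted p under 0.05, higher lectin probe sets numbered 22 with LK32 (8.76%, against 7.34% of all probe sets), 18 with LK34 (7.17%, against 7.39%), 14 with LK35 (5.58%, against 6.3%), 23 with LK38 (9.16%, against 7.27%) and 20 with LK56 (7.97%, against 10.5%). Lower ones numbered 2 (0.797%, against 1.17%), 10 (3.98%, against 4.77%), 13 (5.18%, against 6.07%), 11 (4.38%, against 4.91%) and 2 (0.797%, against 0.794%) in the same order. At this looser limit the lectin shares lay near those of all probe sets.

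**Figure D2:**
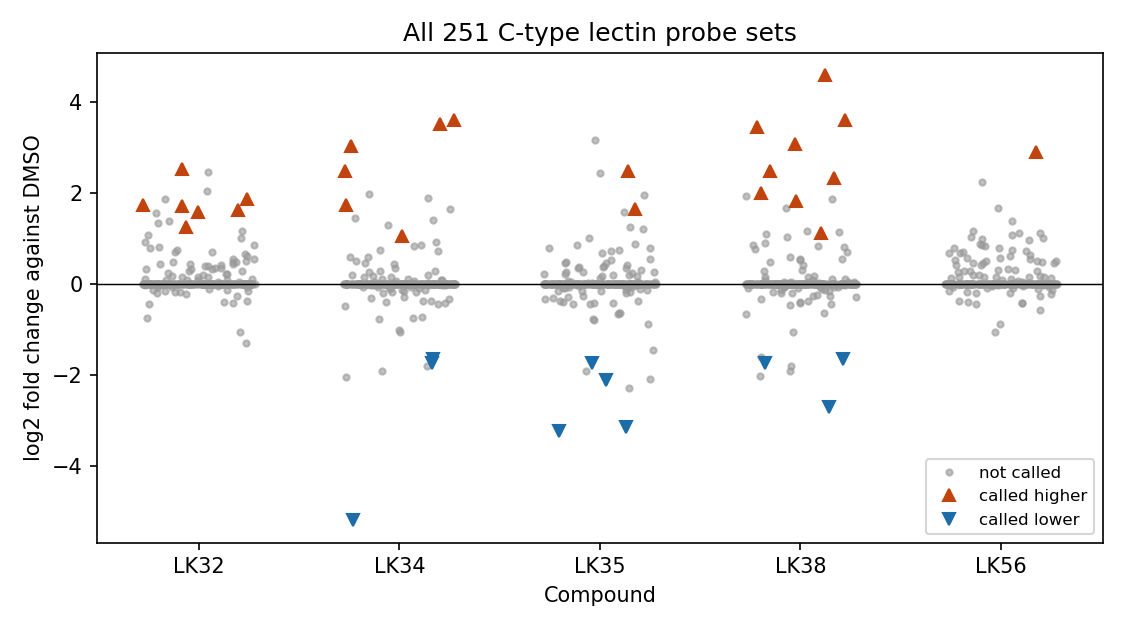
Log2 fold change against DMSO of all 251 C-type lectin probe sets with each compound, spread sideways at random for visibility. Triangles mark the 35 calls, and the grey mass at 0 holds the 138 probe sets that never left the floor.

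In all, 35 calls fell on 19 probe sets of 18 genes. With 1 compound 8 of the probe sets were called, with 2 compounds 7, with 3 compounds 3 and with 4 compounds 1. LK34 and LK38 shared 5 raised lectins. LK32 shared 1 raised lectin, clec-48, with any of LK34, LK35 and LK38. The 3 lectins lowered by LK34, by LK35 and by LK38 alike were clec-7, clec-47 and clec-61. These overlaps rest on the same DMSO arrays and are given as a description.

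**Figure D3:**
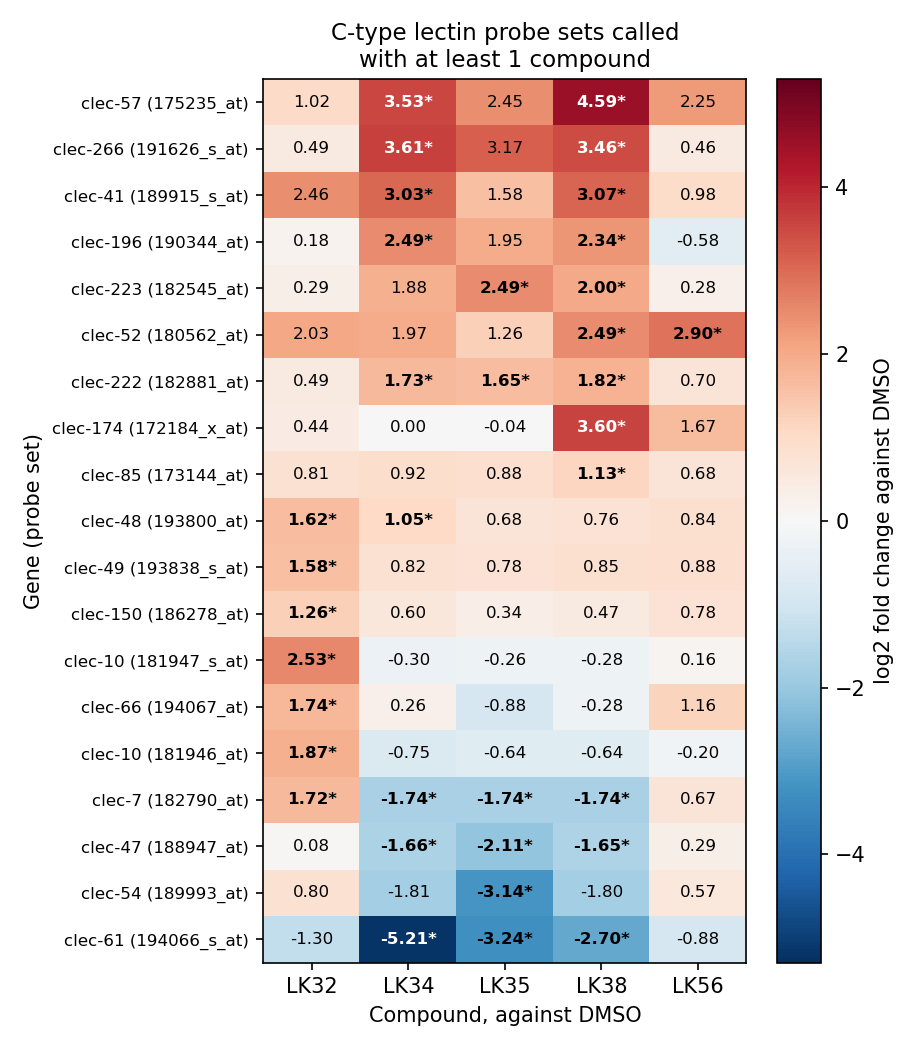
Log2 fold change against DMSO (colour and number) of the 19 called lectin probe sets in rows, with the 5 compounds in columns and an asterisk on each of the 35 calls. The top rows are high with LK34, LK35 and LK38, the middle rows are high with LK32, and the 4 lowest rows are below DMSO with LK34, LK35 and LK38.

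LK34, LK35 and LK38 each lowered clec-47, a gene of chromosome V with no lectin close by. Its intensities were 8964, 8706 and 9289 on the DMSO arrays and 9503, 10380 and 8604 with LK32. They were 3295, 2939 and 2361 with LK34, 1548, 3006 and 1950 with LK35, and 4128, 2983 and 1921 with LK38. With LK56 they were 11086, 11183 and 10702. The 9 arrays of LK34, LK35 and LK38 all lay below the other 9, with a wide gap. The log2 changes were -1.66 ± 0.26 (SE, adjusted p = 0.0027) with LK34, -2.11 ± 0.26 (0.000511) with LK35 and -1.65 ± 0.26 (0.00283) with LK38, against 0.08 with LK32 and 0.29 with LK56. None of the 18 single-array omissions ended these calls.

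The largest fall of any called lectin was that of clec-61 (probe set 194066_s_at), which lies in a row of lectin genes on chromosome II. Probe sets whose names end in _s_at or _x_at, as this one, can bind more than 1 transcript. The DMSO arrays read 376, 301 and 315. The LK34 arrays read 8.46, 9.9 and 8.46, the LK35 arrays 25.1, 66.2 and 25.1, and the LK38 arrays 100, 94.8 and 13.6. The LK32 arrays (96.8, 115 and 214) and LK56 arrays (194, 210 and 141) also lay below DMSO, but those differences did not pass the test. No array of the 5 compounds reached the lowest DMSO value. The changes were -5.21 ± 0.65 (adjusted p = 0.000483) with LK34, -3.24 (0.0136) with LK35 and -2.70 (0.0372) with LK38. Leaving out 1 array ended the LK38 call in 11 of 18 cases (adjusted p up to 0.122) and the LK35 call without LK35 C (0.0701), LK35 A (0.0572) or DMSO A (0.0549), and the LK34 call in none.

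The gene called with the most compounds was clec-7 (chromosome V), and it was the 1 lectin called in opposite directions. It read 17.7, 11.9 and 17.2 with DMSO, 65.9, 39.7 and 49.3 with LK32, and 41.6, 23.9 and 14.7 with LK56. On all 9 arrays of LK34, LK35 and LK38 it was at the floor (4.61). Every LK32 array lay above every DMSO array, and every DMSO array above those 9. It rose with LK32 by 1.72 ± 0.29 (adjusted p = 0.0149) and was at least 3.33-fold lower with LK34, LK35 and LK38 (adjusted p = 0.00483, 0.00496 and 0.00461). The LK32 call ended without DMSO B (0.0776), LK32 A (0.0584) or LK32 C (0.0508). All DMSO values of clec-7 were dim, and with 16 added to every intensity before the logarithm the falls shrank to -0.61 and passed no test (adjusted p = 0.108 to 0.113).

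LK35 also lowered clec-54, a gene of a lectin row on chromosome V. It read 256, 159 and 238 with DMSO and 15.9, 55.7 and 15.9 with LK35, a change of -3.14 ± 0.48 (adjusted p = 0.00237). LK34 (81.6, 71.8 and 38.4) and LK38 (95.1, 67.7 and 35.5) lay below every DMSO array too, at -1.81 and -1.80, where the test was not passed (adjusted p = 0.0617 and 0.0625). LK32 gave 363, 350 and 401 and LK56 gave 350, 291 and 312, above all DMSO arrays but without a call. No single-array omission ended the LK35 call.

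Beside these falls stands another measured change of the same 3 groups. All 22 probe sets of a list of sperm genes were called lower with LK34, LK35 and LK38, and 0 with LK32 and LK56. Their summed intensity was 51949 to 60155 with DMSO, 10402 to 16067 with LK34, 9835 to 10620 with LK35 and 11663 to 17233 with LK38. The summed intensity of 15 intestine probe sets was 60292 to 69836 with DMSO and 65507 to 77368 with LK34. It was 69092 to 79765 with LK35 and 78072 to 93113 with LK38. With LK32 it was 71969 to 80984 and with LK56 74669 to 77664, both above every DMSO array. A higher intestine sum was thus not particular to LK34, LK35 and LK38. With LK34, LK35 and LK38, 2, 3 and 4 of these intestine probe sets were called higher (mtl-2 in each, act-5 with LK38). Called lower were 2, 3 and 2 (ifb-2 and pept-1 in each, elt-7 with LK35). The median log2 changes of the 15 were -0.083, -0.24 and -0.02 in the same order, so there the higher sum was not shared by most of them. With LK32 and LK56 the medians were 0.389 and 0.347. The gene mtl-2 enters the sum through 3 probe sets, which rose by 2.23, 1.88 and 1.29 with LK38. The brightest with DMSO, asp-1, changed by -0.37, -0.66 and -0.41 with LK34, LK35 and LK38. Sums of 11 body wall muscle probe sets were 56919 to 60819 with DMSO and 34981 to 50310 with LK34. They were 33610 to 48524 with LK35 and 33462 to 64033 with LK38. With LK32 they were 64993 to 72910 and with LK56 59333 to 72596. Sums of 15 oocyte and embryo probe sets were 48788 to 50549 with DMSO, 57509 to 83121 with LK34 and 65609 to 85380 with LK35. They were 49640 to 81656 with LK38, 42788 to 47344 with LK32 and 39901 to 56829 with LK56. The part of any of these in the lectin values was not tested.

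Raised by LK34, LK35 and LK38 alike was clec-222 of chromosome V. The DMSO arrays read 540, 366 and 362. LK34 gave 1512, 1505 and 1142, LK35 gave 1055, 1688 and 1231, and LK38 gave 1798, 1381 and 1272. All 9 lay above the 9 arrays of DMSO, LK32 (627, 478 and 664) and LK56 (823, 645 and 575). The changes were 1.73 ± 0.23 (adjusted p = 0.00077), 1.65 ± 0.23 (0.00125) and 1.82 ± 0.23 (0.000459), and no omission of 1 array ended them.

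Its direct neighbor clec-223 was also high with LK34, LK35 and LK38. It read 88.6, 35.2 and 45.8 with DMSO, 150, 215 and 222 with LK34, 233, 320 and 337 with LK35, and 200, 161 and 286 with LK38. These 9 arrays lay above all DMSO and LK32 arrays (83.4, 48.2 and 65.5), while LK56 A (150) equaled the lowest of them and LK56 B and C (52.1 and 32.8) did not. The rises with LK35 (2.49 ± 0.49, adjusted p = 0.0132) and LK38 (2.00, 0.0429) were called, and the difference with LK34 (1.88) was not (0.0586). The LK35 call ended without DMSO B (0.0651), DMSO C (0.0551) or LK35 C (0.0634), and the LK38 call in 15 of 18 omissions (up to 0.177).

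Further lectins were raised by LK34 and LK38 with LK35 short of the test. For clec-196 (chromosome IV) the DMSO arrays gave 45.1, 32.2 and 46, LK34 250, 230 and 204, LK35 98.5, 349 and 112, and LK38 215, 276 and 145. LK32 stayed at 46 to 46.2 and LK56 at 12.9 to 46.7. All arrays of LK34, LK35 and LK38 exceeded all others. The changes were 2.49 ± 0.49 with LK34 (adjusted p = 0.013) and 2.34 with LK38 (0.0183), and 1.95 with LK35 (0.0506). Leaving out DMSO B, LK34 A or LK34 B ended the LK34 call (up to 0.0606), and leaving out DMSO A, DMSO B, LK38 A or LK38 B the LK38 call (up to 0.0895).

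On chromosome X, clec-266 spread widely among the DMSO arrays, at 210, 30.9 and 200. LK34 gave 1820, 1390 and 932, LK35 gave 980, 1644 and 585, and LK38 gave 1417, 1947 and 631, all above every array of DMSO, LK32 (140, 52.5 and 491) and LK56 (128, 106 and 249). LK34 changed it by 3.61 ± 0.87 (adjusted p = 0.0395) and LK38 by 3.46 (0.0475), while the LK35 difference of 3.17 was not called (0.0749). These calls were fragile. They ended in 13 and 15 of 18 omissions, and without DMSO B the changes were 2.70 (0.15) and 2.55 (0.185).

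The same control array stood low for clec-41, a gene linked to Bacillus thuringiensis in earlier worm work. DMSO gave 94.2, 17.3 and 112.7, LK34 595, 492 and 342, LK38 683, 637 and 251, and LK35 84, 344 and 170. LK32 arrays read 240, 255 and 497 and LK56 arrays 136, 95.1 and 109. All LK32, LK34 and LK38 arrays exceeded the DMSO arrays, and LK35 and LK56 overlapped them. LK34 raised it by 3.03 ± 0.70 (adjusted p = 0.0306) and LK38 by 3.07 (0.0278), and the LK32 difference of 2.46 was not called (0.173). Without DMSO B the values were 2.17 (0.0898) and 2.21 (0.0828), and LK34 A, B or C or LK38 A or B left out also ended the respective call (0.0631 to 0.117).

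For clec-57 (chromosome V), probe set 175235_at was near the floor with DMSO (4.7, 4.7 and 5.64) and read 38.2, 92.1 and 54.1 with LK34, 5.64, 74.7 and 48 with LK35 and 134, 160 and 81.6 with LK38. LK32 gave 7.51, 5.04 and 27.4 and LK56 34.7, 14 and 27.4. The LK34 and LK38 arrays exceeded all DMSO, LK32 and LK56 arrays. It rose by 3.53 ± 0.85 with LK34 (adjusted p = 0.0403) and by 4.59 with LK38 (0.00863), the LK34 call ending in 13 of 18 omissions. A second probe set of the same gene, 189922_at, differed by 0.35 with LK34 and 0.80 with LK38 and was not called, so the probe sets of clec-57 disagree.

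Called with LK38 and no other compound were clec-85 and clec-174. The first, a known target of the p38 MAPK pathway of PMK-1, read 1483, 1227 and 1393 with DMSO and 3776, 2741 and 2555 with LK38 (1.13 ± 0.17, adjusted p = 0.00219). Every array of every compound exceeded every DMSO array of clec-85, the lowest being 1996 with LK56. LK34 (0.92, 0.00912) and LK35 (0.88, 0.012) passed the p but not the fold, and LK32 (0.81, 0.0527) and LK56 (0.68, 0.112) passed neither. Without LK38 A its change was 0.96, under 2-fold. The other, clec-174 (172184_x_at), read 191, 132 and 8.1 with LK38 and 4.99, 4.99 and 4.62 with DMSO (3.60 ± 0.90, 0.0469), and 16 of 18 omissions ended the call (up to 0.202). LK56 arrays (22.9, 21.5 and 7.48) also lay above every DMSO array of clec-174 (1.67, 0.53), with 2 of them above LK38 C, and LK38 against LK56 was not called (1.93, adjusted p = 0.424 over 10 pairs).

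**Figure D4:**
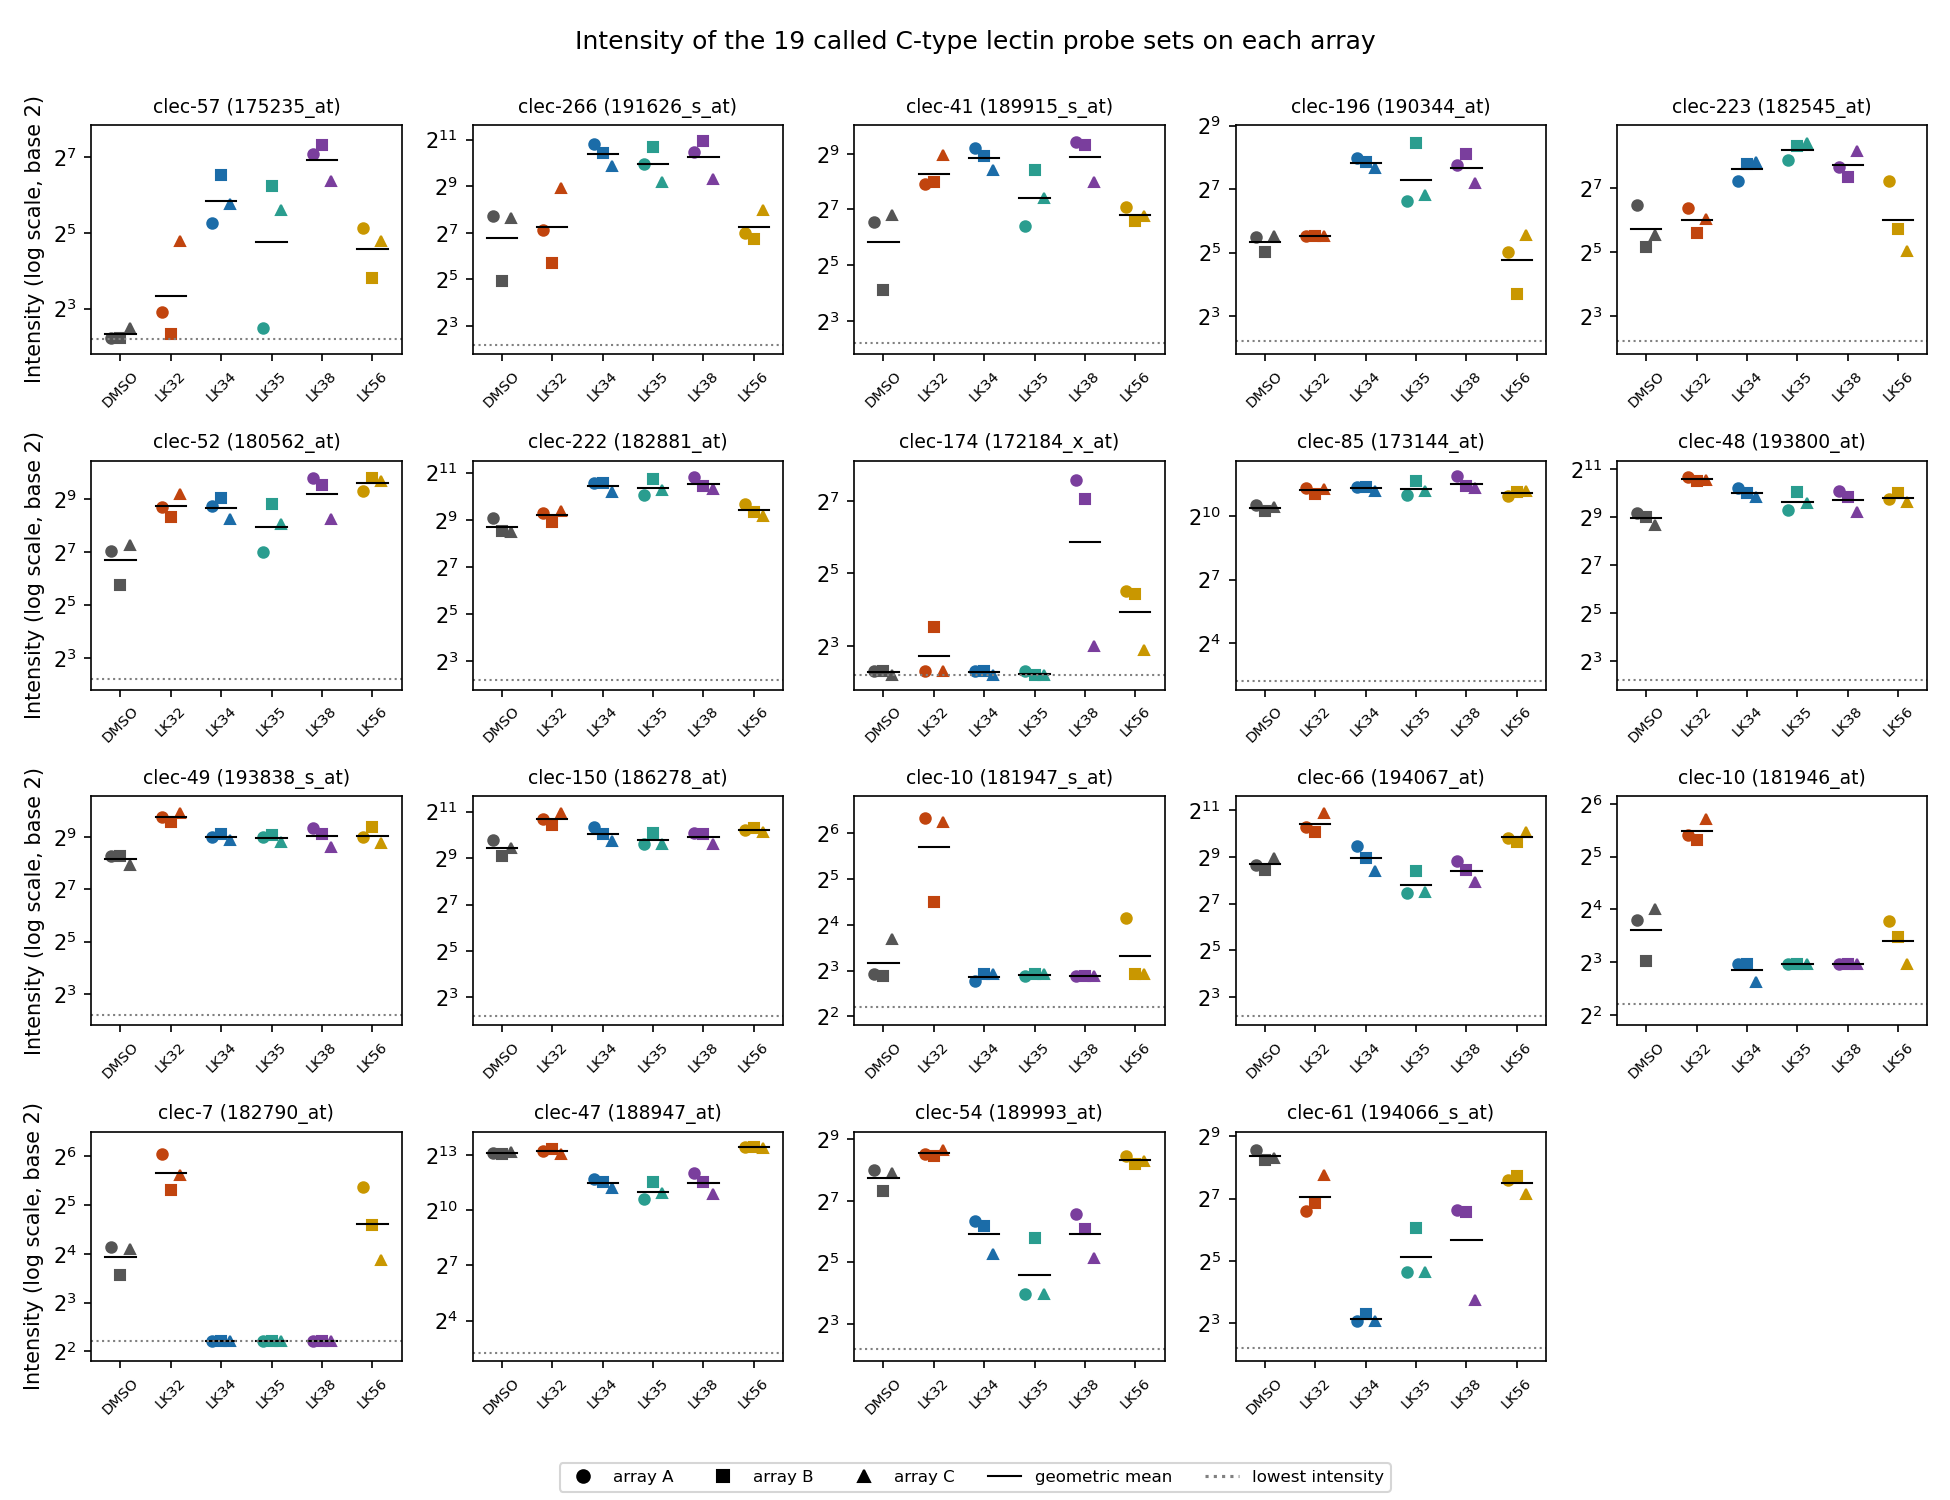
Intensity on each of the 18 arrays (log axis, base 2) of the 19 called lectin probe sets, with array letter by symbol, the geometric mean of each group as a bar and the floor as a dotted line. The first panels are high with LK34, LK35 and LK38 and the last 4 low with them, and DMSO B (square) is the low control in clec-41, clec-52 and clec-266.

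LK32 raised 7 lectin probe sets, those of clec-7, clec-10, clec-48, clec-49, clec-66 and clec-150. For clec-10 (chromosome II), 2 probe sets gave like values. Probe set 181946_at read 42.5, 39.7 and 52.2 with LK32 and 13.9, 8.15 and 16.1 with DMSO, and 181947_s_at read 80.8, 22.6 and 76.1 against 7.54, 7.39 and 12.9. On the arrays of the other compounds the first lay between 6.18 and 13.7 and the second between 6.81 and 17.7, all below every LK32 array. The changes were 1.87 ± 0.24 (adjusted p = 0.00216) and 2.53 ± 0.44 (0.0165). The second call ended without DMSO A, DMSO B, LK32 A or LK32 C (0.0641 to 0.0817). For 181946_at the intensity 7.84 recurred exactly on 9 arrays with 1 below it. For 181947_s_at 7.54 recurred on 7 arrays with 6 below it, so that low values of both had no usable order. Such repeats also occurred for clec-174 (4.99 on 6 arrays) and clec-196 (46 on 3 arrays).

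The genes clec-48 and clec-49 of chromosome V also rose most with LK32. A further probe set that matches both genes, 193801_s_at, was not called with any compound. For clec-49, named in earlier worm work on Serratia marcescens, DMSO gave 309, 310 and 244 and LK32 874, 755 and 955. Arrays of the other compounds lay between 393 and 661, above all DMSO and below all LK32 arrays. Its change was 1.58 ± 0.19 with LK32 (adjusted p = 0.0014) and 0.82, 0.78 and 0.85 with LK34, LK35 and LK38, which passed the p (0.0278, 0.0368 and 0.0221) but not the fold. For clec-48, DMSO gave 577, 512 and 407, LK32 1612, 1448 and 1481 and LK34 1167, 1005 and 913, with rises of 1.62 ± 0.23 (0.00452) and 1.05 (0.0234). Leaving out DMSO B, DMSO C, LK34 A or LK34 B ended the LK34 call (0.0668 to 0.0992), and the LK32 calls of both genes ended in no omission.

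On chromosome II, clec-66 read 403, 342 and 492 with DMSO, 1251, 1071 and 1898 with LK32 and 887, 800 and 1075 with LK56. It read 696, 491 and 339 with LK34, 177, 339 and 180 with LK35 and 453, 345 and 244 with LK38. LK32 and LK56 arrays exceeded all other arrays, and LK34 and LK38 overlapped DMSO. The LK32 rise was 1.74 ± 0.34 (adjusted p = 0.0299), which 7 of 18 omissions ended (up to 0.142), and the LK56 difference of 1.16 was not called (0.165). For clec-150 (chromosome III, 186278_at), LK32 arrays gave 1651, 1354 and 1991 against 869, 541 and 687, a rise of 1.26 ± 0.22 (0.0149) that ended without DMSO B, DMSO C or LK32 C (0.0551 to 0.0717). A second probe set of clec-150, 175872_at, differed by 0.34 with LK32 and was not called.

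The 1 lectin called with LK56 was clec-52 (chromosome IV), which LK38 raised as well. It read 132, 54.1 and 154 with DMSO, 628, 888 and 816 with LK56, and 885, 729 and 301 with LK38. LK32 (408, 320 and 580) and LK34 (419, 522 and 303) also lay above all DMSO arrays, and LK35 (127, 448 and 267) overlapped them. The changes were 2.90 ± 0.53 with LK56 (adjusted p = 0.0274) and 2.49 with LK38 (0.0194), and those with LK32 (2.03, 0.131) and LK34 (1.97, 0.0669) were not called. DMSO B stood low here too. Without it the changes were 2.43 (0.12) and 2.02 (0.0885), and the calls also ended without DMSO A, LK56 A or LK56 B, or without LK38 A or LK38 B (0.0623 to 0.118).

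How these genes compared with other defense genes was read from lists of known genes. Of 11 lectin genes tied to bacterial infection in earlier worm work, 1 was called higher with LK32 (clec-49), 1 with LK34 (clec-41), 0 with LK35, 3 with LK38 (clec-41, clec-52 and clec-85) and 1 with LK56 (clec-52), and 0 were called lower. Their median log2 changes were 0.327, 0, 0.27, 0.855 and 0.745 in the order LK32, LK34, LK35, LK38 and LK56, with 3 of the 11 at the floor throughout. Of 26 probe sets of other infection response genes, 3, 10, 7, 7 and 1 were called higher and 0, 2, 2, 2 and 0 lower, with medians of 0.373, 0.587, 0.006, 0.32 and 0.308. Over all probe sets the median was 0 each time. In the same order, 0.696%, 1.49%, 0.993%, 1.57% and 0.514% of all probe sets were called higher. Called lower were 0%, 0.812%, 1.15%, 0.75% and 0.0133%. Among 28 probe sets of infection signaling genes, 1 was called higher with LK32 and 1 lower with LK35.

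Of the 18 called genes, 9 lie on chromosome V, 4 on IV, 3 on II, 1 on III and 1 on X. On chromosome I, 0 of 33 measured lectin genes were called, and on chromosome V 9 of 73. Lectin genes often stand in rows, and 131 of the 209 measured protein-coding ones (62.7%) had another lectin with at most 2 protein-coding genes between. Among the called genes 11 of 18 (61.1%) had one, close to that share.

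Neighbors in a row did not always give like values. The pair clec-222 and clec-223 gave like values with every compound, differing by at most 0.84 on the log2 scale. In the row of clec-57, clec-227, clec-56, clec-54 and clec-55, the values under LK35 were 2.45 and 0.05 for the 2 probe sets of clec-57 and -2.29 and -3.14 for clec-56 and clec-54, and of these the last alone was called. The pair clec-51 and clec-52 differed in sign with LK34 (-1.01 and 1.97), LK35 (-0.43 and 1.26) and LK38 (-1.60 and 2.49) and shared it with LK32 (1.08 and 2.03) and LK56 (1.01 and 2.90). In the row from clec-62 to clec-66, clec-66 was called with LK32 and the others measured above the floor lay between 0.39 and 0.75, except clec-64 at the floor on 17 arrays. No test of the difference between neighbors was made.

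**Figure D5:**
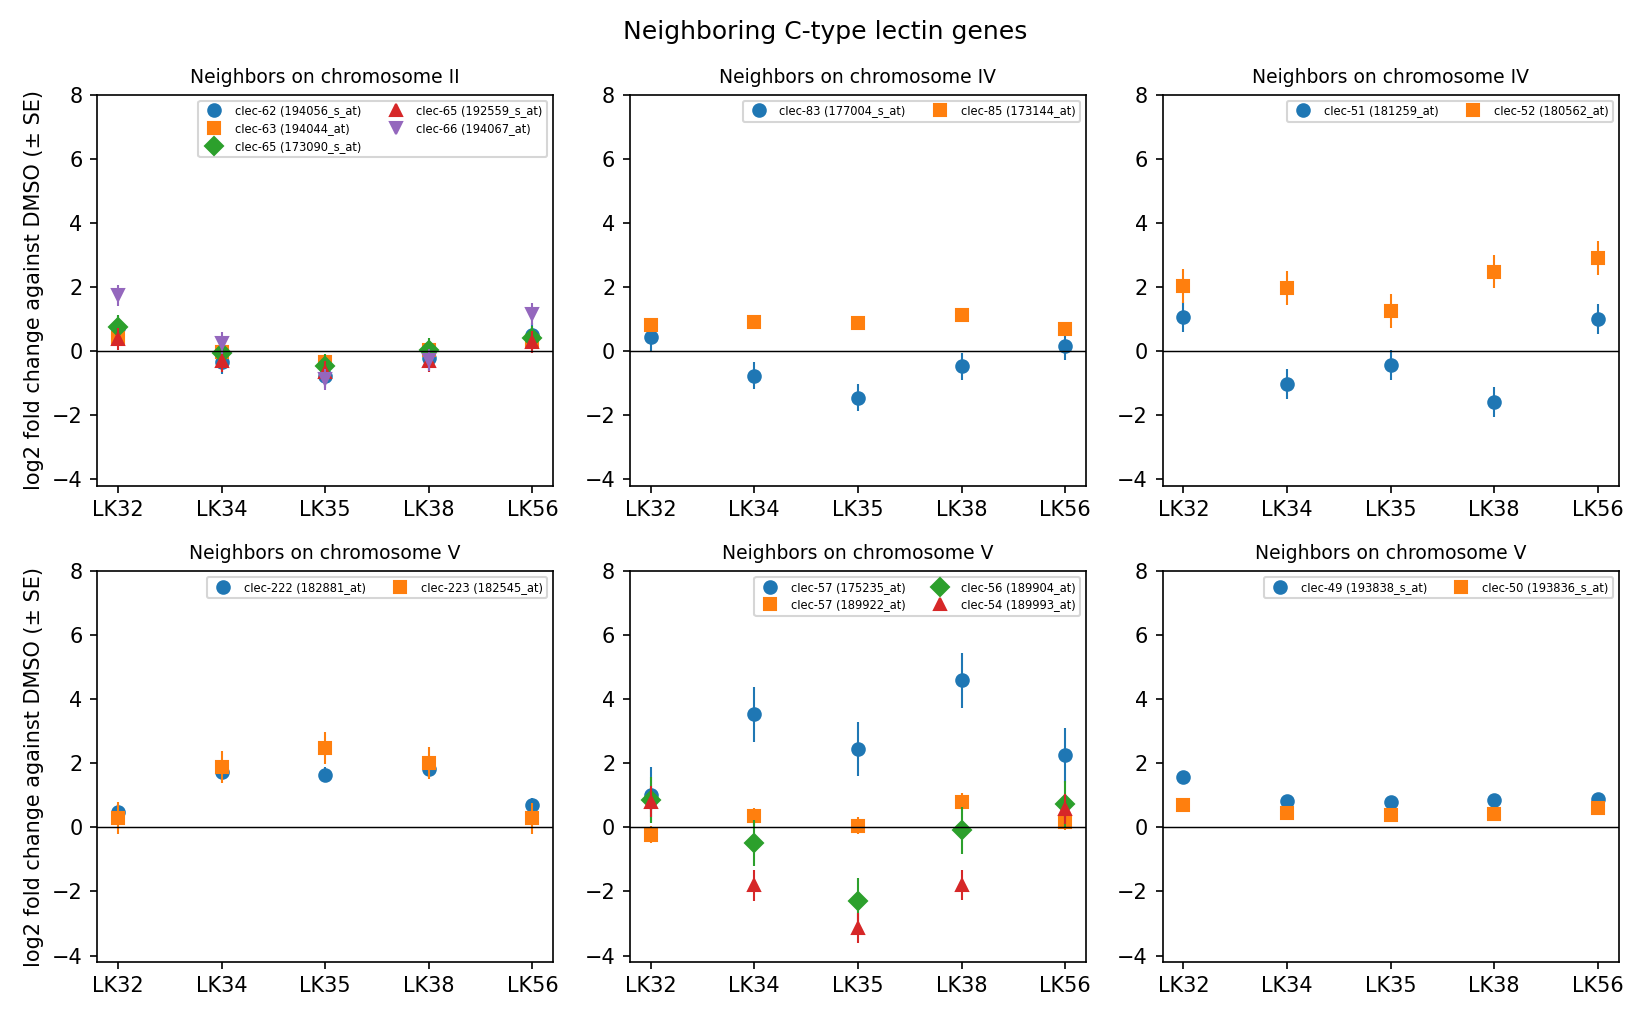
Log2 fold change against DMSO (± SE) with each compound for lectin genes that lie close together, 1 panel per row of genes that holds a called gene and at least 2 probe sets well above the floor. Points of clec-222 and clec-223 lie together, whereas clec-51 and clec-52, and clec-57 (175235_at) and clec-54, lie on opposite sides of 0 with LK34, LK35 and LK38.

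The compounds were then compared directly, all at 100 µM and 8 h. LK35 and LK38 share an N,N-dialkylated phenyl triazene part according to the study. Between them 0 lectin probe sets were called (0.191% of all probe sets were), with p-values adjusted over 4 pairs together, and at an unadjusted p under 0.05 there were 2 higher (0.797%, against 0.439% of all) and 10 lower (3.98%, against 2.13%) in LK35. Between LK34 and LK35, 0 were called (0.0976%), with 5 higher (1.99%, against 1.84%) and 1 lower (0.398%, against 0.408%) in LK34 unadjusted. Between LK34 and LK38, 0 were called (0.226%), with 0 higher (against 0.847%) and 4 lower (1.59%, against 1.21%) in LK34 unadjusted. Between LK32 and LK56 1 was called (0.217%), with 9 higher (3.59%, against 1.54%) and 4 lower (1.59%, against 4.1%) in LK32 unadjusted. It was clec-10, higher with LK32 by 2.07 (95% interval 1.56 to 2.58, adjusted p = 0.0015).

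That few lectins were called between LK34, LK35 and LK38 does not show that these compounds act alike. Of the lectin probe sets above the floor on some array, the 95% interval of the difference stayed within 2-fold for 79 (69.9%) between LK34 and LK35, for 82 (72.6%) between LK34 and LK38, for 76 (67.3%) between LK35 and LK38 and for 75 (66.4%) between LK32 and LK56. For the others a 2-fold difference was not excluded by its interval. One of them was clec-174, whose difference between LK35 and LK38 of -3.64 (95% interval -5.60 to -1.68) rested on the LK38 A and B arrays.

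The other 6 pairs were added after the values were seen, with p-values adjusted over all 10. Of the 251 lectin probe sets, 11 were called between LK32 and LK34 (against 3.67% of all probe sets). Between LK32 and LK35 there were 12 (against 4.53%), and between LK32 and LK38 12 (against 3.52%). LK56 differed from each of LK34, LK35 and LK38 at 9 (against 3.75%, 4.46% and 3.51%), and from LK32 at 2 (against 0.355%). For the 6 added pairs the lectin shares lay near those of all probe sets. Under this adjustment LK34 differed from LK38 at 2, clec-61 and clec-174 (0.395%), and LK35 from LK38 at 1, clec-174 (0.324%), and LK34 from LK35 at 0 (0.222%).

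Called in each of the 3 pairs of LK32 with LK34, LK35 and LK38 were clec-7, clec-10, clec-47, clec-54, clec-66, clec-222 and clec-264. For clec-7 the difference was 3.46 in all 3 (adjusted p = 2.84e-05), and for clec-47 it was 1.74, 2.18 and 1.72. The gene clec-264 was not called against DMSO. It read 53.3, 32.1 and 63 with LK32 and 22.4, 11.4 and 36.8 with DMSO, and between 4.61 and 5.95 on the 9 arrays of LK34, LK35 and LK38, with differences from LK32 of 3.22, 3.27 and 3.20. LK56 differed from these 3 compounds at clec-7, clec-47, clec-54, clec-76, clec-86 and clec-196 each time. Of these, clec-86 read 24.6, 52.6 and 25.7 with LK56 and at most 12.2 with LK34, LK35 and LK38.

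The probe sets most like clec-7 over the 6 group means, among those of 1 gene well above the floor, were C52E2.4 (Pearson r = 0.9993), nhr-99 (0.9986), M163.1 (0.9971), F58H1.7 (0.9964) and R05H10.1 (0.9959). These are the top 5 of a search over all such probe sets, and 3 of the 6 group means of clec-7 are the floor.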

How the data were processed

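RNA from whole worms was hybridized to 18 Affymetrix arrays. The deposited intensity values were made by the authors with GCRMA, whose version and settings are not given in the sources used here. The scale is linear. GCRMA normalizes the arrays to each other, so a shift shared by every transcript can be hidden. The deposited arrays were still not level. Their median over all probe sets well above the floor ran from 356.8 (LK35 A) to 544.7 (LK56 A). Comparisons were not corrected for this, apart from the alternative with quantile normalization. Of 22625 probe sets, 77 controls were left out. A linear model with a mean for each of the 6 groups was fitted to log2 intensities, no offset added, in limma 3.58.1 (R 4.3.3). It pools the variance of all arrays, leaving 12 residual degrees of freedom and 0.332 of the prior. The p-values rest on a spread pooled over the replicates of all 6 groups, including groups not compared. They therefore do not measure the spread of the compared groups alone, and 3 replicates per group limit the precision.

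The platform annotation named the genes, and all 251 lectin symbols were found unchanged in RefSeq (WBcel235), which gave chromosomes and gene neighbors. No build is stated for the array, so no coordinates are printed.

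Every called lectin was named. Array values were due for those called with at least 2 compounds and the 3 highest and lowest called per compound. The members and gene lists were chosen with earlier results of these data known. Genes well above the floor exceeded 5 on the log2 scale on at least 3 arrays. Alternatives were quantile normalization, an offset of 16, dim probe sets left out, array weights (which stopped before converging), the replicate letter as a block, the compared groups alone, no fold limit, probe sets of 1 gene and transcript, and each array left out. Tested on simulated data for LK34 against DMSO over 22548 probe sets, the fit recovered 76 of 100 log2 changes of 1.5. Of log2 changes of 3 it recovered 94 of 100. Recovery was not measured for lectin probe sets, of which 46 were well above the floor and 138 at it on every array. These rates therefore do not give the chance of detecting a change in a lectin at or near the floor.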

Additional observations from a re-analysis of the deposited data

Results flagged for a closer look

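One lectin gene was singled out because its change with LK32 ran against that with LK34, LK35 and LK38. For clec-7, called higher with LK32 and lower with LK34, LK35 and LK38, the direct difference was 3.4554 between LK32 and LK34, 3.4555 between LK32 and LK35 and 3.4552 between LK32 and LK38 on the log2 scale (limma, adjusted p = 2.84e-05 each, over 10 pairs). The rule that picked the gene required opposite calls against DMSO and a called direct difference. These differences and p-values therefore add no further support to those calls. All 3 LK32 arrays read higher than all 9 arrays of LK34, LK35 and LK38, on which clec-7 was at the lowest intensity. The LK56 arrays were not at the lowest intensity and overlapped those of LK32. The difference between LK32 and LK56 was not called (1.05, limma, adjusted p = 0.0752 over 10 pairs). Groups of 3 arrays are too small to single out an array by its distance from the others.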

How the results depend on the processing

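No call of a named lectin changed direction under any alternative run. Of the 35 calls, array weights kept 34, quantile normalization 34, the offset of 16 30 and the compared groups alone 7, those of clec-7 (LK34 and LK35), clec-47, clec-61 and clec-196 (LK34) and clec-57 (LK34 and LK38). Leaving out dim probe sets kept all 33 calls that could still be tested, and probe sets of 1 gene and transcript kept 23 of 25. The cause of the changes below was not tested. Fits on the compared groups alone hold fewer arrays and take their spread from those arrays only.

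Numbers of lectins called higher, in the order LK32, LK34, LK35, LK38 and LK56, were 7, 6, 2, 9 and 1 as reported, 15, 12, 6, 16 and 5 with array weights and 0, 2, 0, 1 and 0 with the compared groups alone. Numbers called lower were 0, 3, 4, 3 and 0 as reported and 1, 7, 9, 7 and 0 with array weights, and LK35 had 1 and LK38 0 with the groups alone. Without dim probe sets LK34 had 10 higher and 5 lower, LK35 4 and 7, and LK38 6 lower. Probe sets of 1 gene and transcript gave 3 higher for LK34 and 5 for LK38. Quantile normalization gave 5 lower for LK38, and no fold limit 4 higher for LK35. Without 3 arrays chosen after seeing the data (LK32 C, LK35 A and LK38 C, each the least correlated of its group), 3, 4, 16 and 3 were higher with LK32, LK35, LK38 and LK56.

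Between compounds, array weights gave 14 for LK35 and LK38, 6 for LK34 and LK35, 6 for LK34 and LK38 and 6 for LK32 and LK56. LK32 and LK56 gave 2 with quantile normalization and 0 with the groups alone. Without the 3 arrays, LK35 and LK38 gave 2, LK34 and LK35 1 and LK34 and LK38 3. Adjusted over 10 pairs, a choice made after seeing the data, the numbers were 1 for LK35 and LK38, 2 for LK34 and LK38 and 2 for LK32 and LK56.

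Leaving out 1 array at a time gave 3 to 8 higher for LK32, 1 to 8 for LK34, 1 to 5 for LK35, 2 to 12 for LK38 and 0 to 5 for LK56, and 0 lower for LK32, 3 to 5 for LK34, 3 to 6 for LK35, 2 to 4 for LK38 and 0 for LK56. Between compounds it gave 1 to 3 for LK32 and LK56 (3 without LK56 A or LK56 C, 2 without LK32 B), 0 for LK34 and LK35, 0 to 3 for LK34 and LK38 and 0 to 2 for LK35 and LK38, the highest of both without LK38 C.

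The labels do not say whether arrays of the same replicate letter were prepared together. Deviations from the group means correlated at a median of -0.005 over 45 pairs of arrays of the same letter and other groups (range -0.458 to 0.787). Over 90 pairs of other letters the median was -0.009 (range -0.76 to 0.748). Above 0.1 were 15 of the 45 and 26 of the 90. A batch shared by some of the groups was not tested. With the letter as a replicate block, 27 of the 35 calls were kept, and higher lectins numbered 6, 4, 2, 6 and 0 and lower ones 0, 3, 4, 3 and 0. The floor hides any level below it, so folds against groups wholly at the floor are lower bounds.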
